A study of Saccharomyces cerevisiae with 6 samples.

Results

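Histone genes and the regulators of their transcription were followed as a set of 10 genes in budding yeast carrying mutant forms of Tra1. The set was chosen by gene name, with earlier results of these data known. It holds 4 histone genes (HTB1, HTB2, HTZ1 and HHO1) and 6 regulators (HIR1, HIR2, HPC2, ASF1, SPT10 and SPT21). All 10 were matched by symbol, out of 5656 genes that had a probe set of their own, and each was read by 1 probe set. Levels came from 6 one-colour expression arrays, 2 each for wild type (WT) and for the mutants M1 and M8. The title of the series calls the mutants defective in the interaction of Tra1 with the activator Gal4. The labels give wild type as the genotype of WT and the Gal4-interaction defect as that of M1 and M8. All 3 groups were grown in rich YPD medium with no treatment, and total RNA of whole cells was labelled with biotin. The sources used here do not give the amino acid changes, the strain background, the mating type or whether any other copy of TRA1 was present. Nothing says that duplicates came from separate cultures, so the p-values cover the spread between these arrays and no more, and that spread may be technical.

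In budding yeast the core histone genes lie in divergent pairs and are transcribed in a burst around the start of DNA replication. Spt10 binds their upstream activating sequences and acts with Spt21, while the HIR complex (Hir1, Hir2, Hir3 and Hpc2) and the chaperone Asf1 repress them outside that window. The pair HTA2-HTB2 is the one that the HIR complex is known to leave largely alone. HTZ1, which encodes the variant H2A.Z, and HHO1, which encodes the linker histone H1, stand apart from the pairs. Tra1 is a scaffold shared by the histone acetyltransferase complexes SAGA and NuA4, and SAGA acetylates H3 whereas NuA4 acetylates H4 and H2A.

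Values below are deposited log2 levels, so a difference of 1 is a 2-fold change, and differences carry the standard error (SE) of a limma fit to all genes on all 6 arrays. A gene was called at an adjusted p under 0.05 after Benjamini-Hochberg correction over the 5656 genes. Levels of different genes were not set against each other, because probe sets differ in how they bind. The array medians lay between 6.48 and 6.52. M1 replicate 2 stood apart from the rest, with an SD of 0.324 from the mean of the other 5 arrays over all probe sets, against 0.156 to 0.228 for the others. It was the lowest of the 6 arrays for 33.4% of the 5656 genes. For TRA1 itself, at its probe set with the highest signal, the mean in M1 was 0.38 (SE 0.17) above WT and that in M8 0.46 (SE 0.17) above it, with limma adjusted p = 0.599 and 0.660. The 7 measured marker genes of MATa cells had a median difference from WT of -0.40 in M1 and -0.011 in M8, and the 4 of MATalpha cells -0.17 and -0.017, with 0 called by limma. The M1 median of the MATa genes was -0.11 without M1 replicate 2. AGA2 and MFA1, both expressed in MATa cells, had the largest differences of these 7 in each mutant and means below WT in both. The differences were -0.57 (SE 0.12) and -0.52 (SE 0.15) in M1 and -0.52 (SE 0.12) and -0.59 (SE 0.15) in M8. Of the 7 MATa genes, 1 had a mean above WT in M1 and 3 in M8. At an unadjusted limma p under 0.05, 3 of the 7 were lower in M1 and 2 in M8. Of all 5656 genes 196 were lower in M1 and 131 in M8.

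In M1 the 4 histone genes of the set all had means below WT, while in M8 3 of them had means above WT. The 6 probe sets shared by the H2A, H3 or H4 genes, outside the set, had median differences of -0.26 in M1 and -0.25 in M8. The regulators ASF1 and SPT21 had higher means in both mutants, and their arrays in each mutant lay above both WT arrays. None of these differences was called. In RNA of a whole culture, fewer cells in S phase and fewer histone messages per cell cannot be told apart. By limma 0 of the 10 genes were called in M1, in M8, in M8 against M1, or for the mean of both mutants against WT. The background was the same for the single comparisons, with 0% of all genes called in each, and 0.0707% for the mean of the mutants. At an unadjusted p under 0.05 there was 1 gene in M1, HTZ1, which was lower, as were 3.47% of all genes. In M8 there were 2, ASF1 and SPT21, both higher, as were 4.74% of all genes. The same 2 were higher for the mean of the mutants, against 5.25% of all genes, and 0 passed between the mutants, against 6.44%. In M1 both arrays lay above both WT arrays for 3 genes and below for 1, against 22% and 13.5% of all genes. In M8 there were 3 above and 3 below, against 29% and 19.1%. For all 4 mutant arrays there were 2 above and 1 below, against 11.9% and 6.86%. In M8 against M1 there were 6 above and 1 below, against 19.5% and 18.4%. The ordinary linear model also called 0 members in each of the 4 comparisons.

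**Figure D1:**
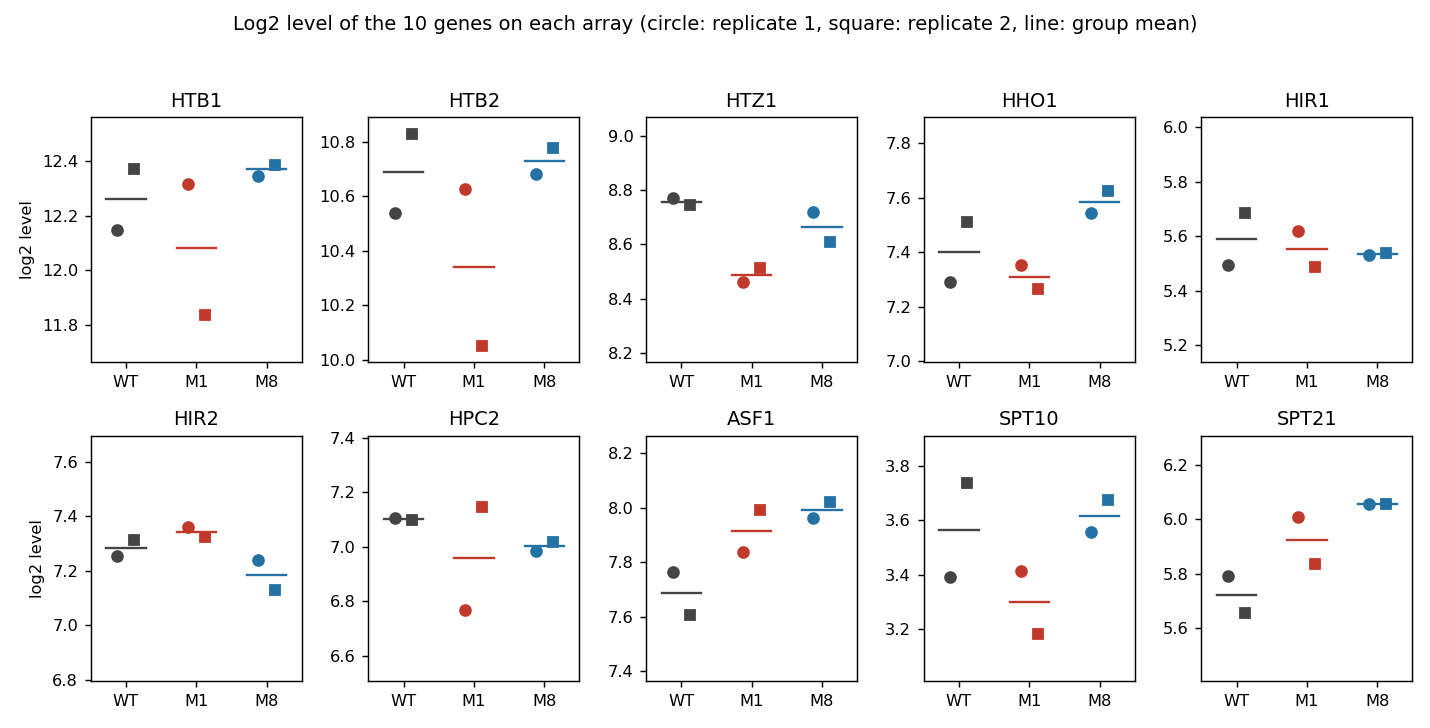
Log2 level of each of the 10 genes on each array, by group on the horizontal axis. Circles are replicate 1, squares replicate 2 and lines group means, and every panel spans the same height of log2 units. HTB1 and HTB2 have their lowest value on M1 replicate 2, HTZ1 is low on both M1 arrays, and ASF1 and SPT21 lie above WT on all 4 mutant arrays.

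HTB1 (YDR224C) and HTB2 (YBL002W) encode the core histone H2B. HTB1 had log2 levels of 12.15 and 12.37 on the WT arrays, 12.32 and 11.84 on the M1 arrays, and 12.34 and 12.39 on the M8 arrays. M1 replicate 1 therefore lay between the WT arrays, and M1 replicate 2 was the lowest of all 6. The difference from WT was -0.18 (SE 0.17) in M1 and 0.11 (SE 0.17) in M8, with limma adjusted p = 0.757 and 0.931. HTB2 had log2 levels of 10.54 and 10.83 in WT, 10.63 and 10.05 in M1, and 10.68 and 10.78 in M8. Its difference from WT was -0.35 (SE 0.20), or 1.27-fold lower, in M1 and 0.045 (SE 0.20) in M8, with limma adjusted p = 0.651 and 0.980. The duplicates of M1 differed by 0.48 for HTB1 and 0.58 for HTB2, against a median of 0.20 over all genes. The 2 genes encode nearly the same protein, and whether each probe set also reads the other copy was not tested.

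The H2B result in M1 turned on which duplicate was used. Without M1 replicate 2 the difference from WT was 0.057 for HTB1, a change of sign, and -0.057 for HTB2. Without M1 replicate 1 it was -0.42 for HTB1, with limma adjusted p = 0.0851, and -0.64 for HTB2, with limma adjusted p = 0.0428. HTB2 was then the 1 member called of 10, against 6.75% of all genes in that setting. The lone M1 array is then assumed to vary like the other groups. WT varied as well: without WT replicate 2 the HTB1 difference was -0.071 and that of HTB2 -0.20. In M8 the sign turned for HTB1 (-0.0068) and HTB2 (-0.10) without WT replicate 1, and for HTB2 (-0.0020) without M8 replicate 2.

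HTZ1 (YOL012C), the gene of the variant H2A.Z that the SWR1 complex places beside promoters, was the histone gene whose duplicates lay closest in WT and M1. It had log2 levels of 8.77 and 8.74 in WT, 8.46 and 8.51 in M1, and 8.72 and 8.61 in M8. Both M1 arrays lay below all others, and both M8 arrays lay between M1 and WT. The difference from WT was -0.27 (SE 0.11), or 1.21-fold lower, in M1, with a 95% interval from -0.53 to -0.013, an unadjusted p = 0.0418 and limma adjusted p = 0.557. In M8 it was -0.093 (SE 0.11), with limma adjusted p = 0.898. Over the 16 alternative settings the M1 difference ranged from -0.29 to -0.24. Leaving out 1 array could not turn its sign, because both M1 arrays lay below WT. The difference between the mutants, M8 minus M1, was 0.18 (SE 0.11), with limma adjusted p = 0.722.

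HHO1 (YPL127C), the gene of the linker histone H1, had log2 levels of 7.29 and 7.51 in WT, 7.35 and 7.26 in M1, and 7.54 and 7.62 in M8. The M8 arrays were the highest of the 6, and the M1 arrays overlapped with WT. The difference from WT was -0.092 (SE 0.12) in M1 and 0.18 (SE 0.12) in M8, with limma adjusted p = 0.836 and 0.842. Without WT replicate 2 the M1 difference was 0.019, and without WT replicate 1 the M8 difference was 0.073. Between the mutants HHO1 differed by 0.28 (SE 0.12), with limma adjusted p = 0.722.

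The median over the 4 histone genes was -0.23 in M1 and 0.075 in M8, against 0.012 and 0.029 over all genes. Below 0 lay 4 of the 4 in M1 and 1 of the 4 in M8, against 47.3% and 43.0% of all genes. Without M1 replicate 2 the M1 median was -0.052. Without WT replicate 1 the M8 median was -0.044, and without WT replicate 2 it was 0.20. For all 4 histone genes both M8 arrays lay above both M1 arrays, which held for 19.5% of all genes. It did not hold for the shared H2A, H3 and H4 probe sets described below. The differences between the mutants ranged from 0.18 for HTZ1 to 0.39 for HTB2, and 0 of the 4 were called by limma or passed an unadjusted p under 0.05. Without M1 replicate 1 the differences for HTB1 (0.53, limma adjusted p = 0.0360) and HTB2 (0.68, limma adjusted p = 0.0247) were called, 2 of the 10 members against 13.2% of all genes in that setting, and without M1 replicate 2 they were 0.048 and 0.10.

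**Figure D2:**
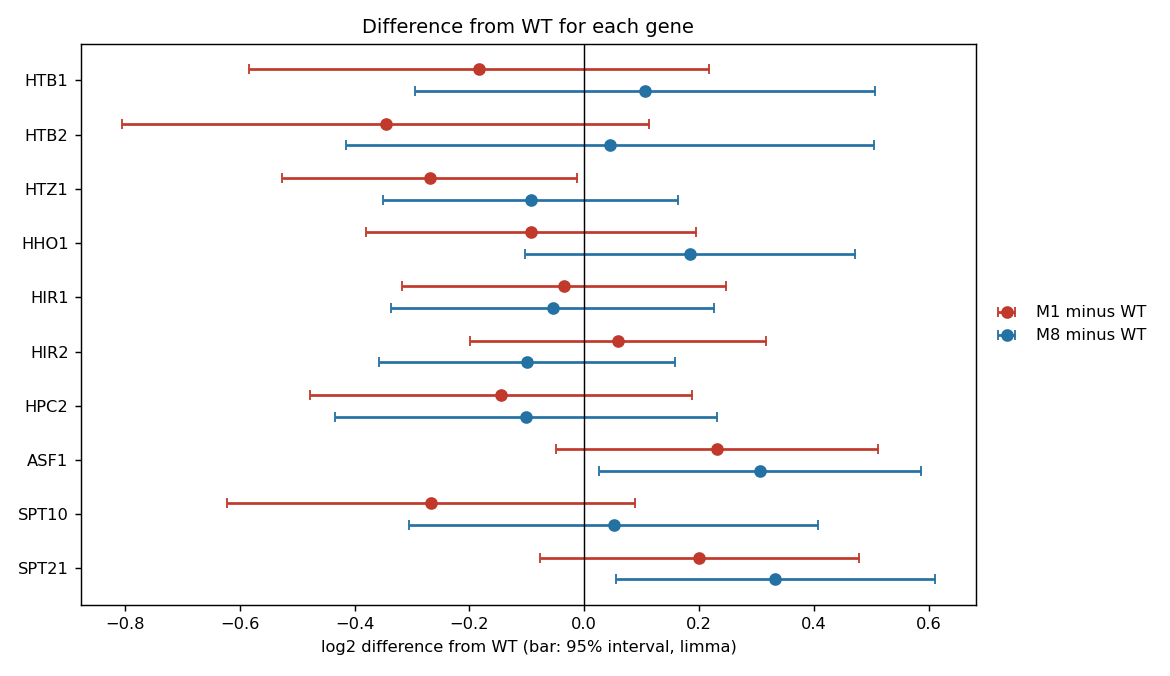
Log2 difference from WT of each gene in M1 (red) and M8 (blue), with 95% intervals from the limma fit. The intervals leave 0 out for HTZ1 in M1 and for ASF1 and SPT21 in M8, before adjustment for the number of genes tested.

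The genes of H2A, H3 and H4 come in pairs of nearly identical copies, and the platform's table gives each of their probe sets to both copies, so no single gene can be named for them. HTB1 lies next to HTA1 and HTB2 next to HTA2 in the gene order, and these neighbours are read together. There were 6 such probe sets, and they were fitted together with all 9275 probe sets. Their median difference from WT was -0.26 in M1, with 6 of 6 below 0, and -0.25 in M8, with 5 of 6 below 0. Of the 5656 genes, rather than of all probe sets, 47.3% lay below 0 in M1 and 43.0% in M8. Several of the 6 probe sets read the same pair of genes, so they do not count 6 separate messages. By limma 0 were called in either mutant. Between the mutants (M8 minus M1) the median was 0.11, with 2 of 6 below 0 and 0 called. Both M8 arrays lay below both M1 arrays for the first H3 probe set and overlapped with M1 for the others. At an unadjusted p under 0.05 there was 1 probe set in M8, lower, against 2.61% of the 9275 probe sets, and 0 in M1. The M1 median was -0.11 without M1 replicate 2 and -0.50 without M1 replicate 1, and the M8 median was -0.15 without WT replicate 2.

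The probe set for both H4 genes had log2 levels of 11.21 and 11.23 in WT, 11.07 and 10.80 in M1, and 10.99 and 10.91 in M8. All 4 mutant arrays lay below both WT arrays, which held for 7.6% of all probe sets. The difference was -0.28 (SE 0.13) in M1 and -0.27 (SE 0.13) in M8, with limma adjusted p = 0.768 and 0.836. The first of the 2 H2A probe sets also had all 4 mutant arrays below WT, with 12.60 and 12.60 in WT, 12.50 and 12.22 in M1, and 12.25 and 12.35 in M8. The other H2A probe set overlapped with WT in both mutants, at 10.50 and 10.91 in WT, 10.59 and 9.93 in M1, and 10.40 and 10.53 in M8.

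The 3 H3 probe sets disagreed, although the table gives all of them to the same pair of genes. The first had log2 levels of 12.28 and 12.31 in WT, 11.96 and 12.30 in M1, and 11.78 and 11.93 in M8, and it was the 1 with an unadjusted p under 0.05 in M8 (-0.44, SE 0.15, limma adjusted p = 0.802). The second had 10.25 and 10.52 in WT, 10.36 and 9.72 in M1, and 10.29 and 10.24 in M8. The third had 13.56 and 13.70 in WT, 13.80 and 13.04 in M1, and 13.68 and 13.73 in M8. The second and the third therefore shared with HTB1 and HTB2 a low value on M1 replicate 2, while the first was low on M1 replicate 1 and on both M8 arrays. CSE4, the gene of the centromeric H3 variant, has a probe set of its own, with a difference of 0.22 (SE 0.18) for M1 and of -0.13 (SE 0.18) for M8, and limma adjusted p = 0.722 and 0.911. Its sign turned without M1 replicate 2 (-0.013) and, in M8, without M8 replicate 2 (0.0084).

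**Figure D3:**
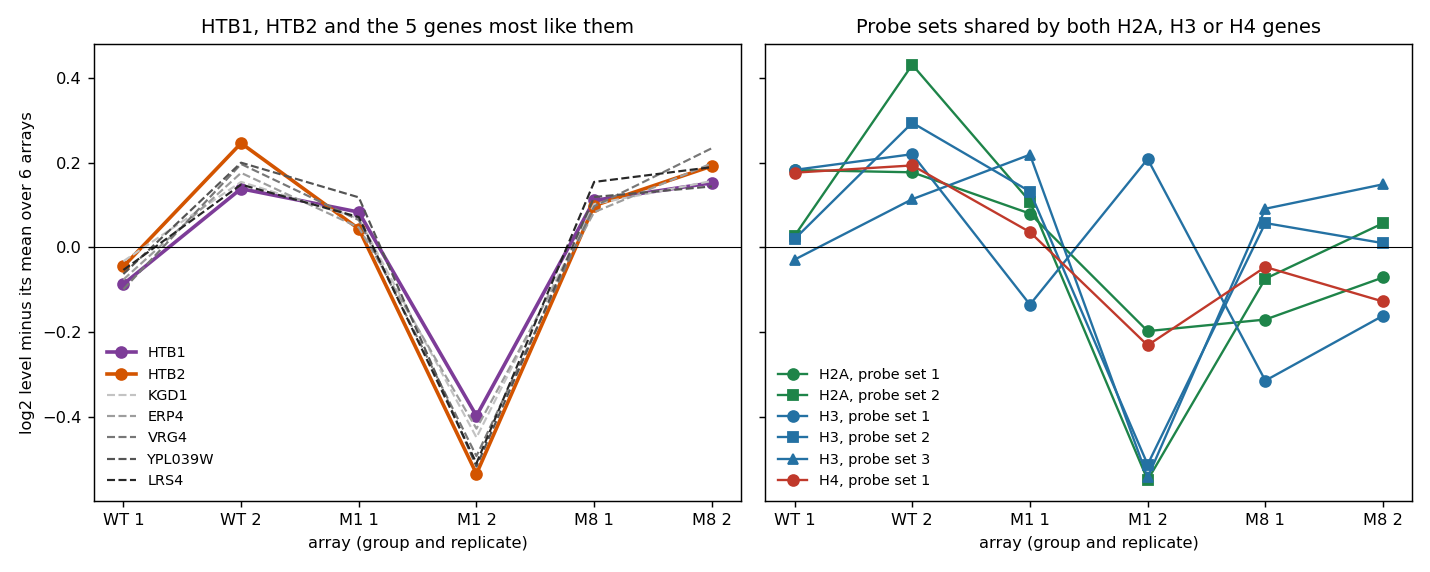
Log2 level minus its mean over the 6 arrays, for HTB1, HTB2 and the 5 genes with the most similar pattern (left) and for the 6 probe sets shared by both genes of H2A, H3 or H4 (right). The horizontal axis gives group and replicate. All 7 genes on the left share a low value on M1 replicate 2, while on the right the first H3, the first H2A and the H4 probe set lie below their means on both M8 arrays.

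The genes most like H2B over the 6 arrays were sought by the root mean square difference of centred log2 levels from the mean profile of HTB1 and HTB2. The 5 closest outside the set were KGD1 (YIL125W, 0.023), ERP4 (YOR016C, 0.023), VRG4 (YGL225W, 0.031), YPL039W (0.033) and LRS4 (YDR439W, 0.034), against a median of 0.239 over all genes. KGD1 encodes a subunit of the mitochondrial alpha-ketoglutarate dehydrogenase, VRG4 a Golgi GDP-mannose transporter and LRS4 a nucleolar subunit of the monopolin complex. KGD1 had log2 levels of 9.57 and 9.76 in WT, 9.67 and 9.16 in M1, and 9.71 and 9.76 in M8. HTB1 and HTB2 came at ranks 7 and 8 of closeness to their own mean profile. By construction both lie at the same distance from it (0.038), set by how far the 2 genes lie from each other. The profile is lowest on M1 replicate 2, which was the lowest array for 33.4% of all genes. Of the other members SPT10 was the closest, at 0.091 and rank 174, and HHO1 came at rank 818. ASF1 was the farthest, at 0.307 and rank 4325.

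HIR1 and HIR2, repressors of the HIR complex, had the narrowest ranges of the 10 genes over the 6 arrays, 0.20 and 0.23. HIR1 (YBL008W) had log2 levels of 5.49 and 5.69 in WT, 5.62 and 5.49 in M1, and 5.53 and 5.54 in M8, and the groups overlapped. M1 differed from WT by -0.036 (95% interval -0.32 to 0.25) and M8 by -0.055 (-0.34 to 0.23). HIR2 (YOR038C) had 7.25 and 7.31 in WT, 7.36 and 7.32 in M1, and 7.24 and 7.13 in M8. The M1 arrays lay above WT and the M8 arrays below it, by 0.059 (SE 0.11) and -0.10 (SE 0.11). The difference between the mutants was -0.16 (SE 0.11), with limma adjusted p = 0.734.

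HPC2 (YBR215W), which encodes the HIR subunit found through histone promoter control, had log2 levels of 7.11 and 7.10 in WT, 6.77 and 7.15 in M1, and 6.98 and 7.02 in M8. The M1 duplicates fell on either side of WT. The difference was -0.15 (SE 0.14) in M1 and -0.10 (SE 0.14) in M8, with limma adjusted p = 0.773 and 0.923. The M1 difference turned to 0.043 without M1 replicate 1 and was -0.33 without M1 replicate 2. That array order is the opposite of the one for HTB1 and HTB2, which were higher on M1 replicate 1 than on M1 replicate 2. In M8 HPC2, HTB1 and HTB2 were all higher on replicate 2, and a link between them was not tested. HIR3, the gene of the remaining HIR subunit, is among the other regulators counted further on.

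ASF1 (YJL115W) encodes a chaperone of H3 and H4 that works with the HIR complex and also in nucleosome assembly behind the replication fork. Its log2 levels were 7.76 and 7.61 in WT, 7.84 and 7.99 in M1, and 7.96 and 8.02 in M8. All 4 mutant arrays lay above both WT arrays, which held for 11.9% of all genes. The difference was 0.23 (SE 0.12), or 1.17-fold higher, in M1 and 0.31 (SE 0.12), or 1.24-fold higher, in M8, with limma adjusted p = 0.637 and 0.671. For the mean of both mutants it was 0.27 (SE 0.10), with limma adjusted p = 0.590. Under the 16 alternatives the difference ranged from 0.15 to 0.31 in M1 and from 0.23 to 0.39 in M8. Leaving out 1 array could not turn the sign, because the mutant arrays did not overlap with WT. The M1 difference was 0.15 without WT replicate 2 and 0.15 without M1 replicate 2. The comparisons of M1 and of M8 share the WT arrays.

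Of the activators, SPT21 had means above WT in both mutants and SPT10 had a mean below WT in M1. SPT21 (YMR179W), whose product acts with Spt10 at core histone promoters, had log2 levels of 5.79 and 5.66 in WT, 6.01 and 5.84 in M1, and 6.06 and 6.06 in M8. All 4 mutant arrays lay above both WT arrays. The difference was 0.20 (SE 0.12) in M1 and 0.33 (SE 0.12), or 1.26-fold higher, in M8, with limma adjusted p = 0.663 and 0.660. The mean of both mutants differed by 0.27 (SE 0.10), with limma adjusted p = 0.588. Under the 16 alternatives the M8 difference ranged from 0.27 to 0.40. The M1 difference ranged from 0.11, without M1 replicate 1, to 0.29, and it was 0.13 without WT replicate 2. With the spread taken from WT and M8 alone, the limma adjusted p in M8 was 0.168 for SPT21 and 0.201 for ASF1, and 23 of all genes but 0 members were called.

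SPT10 (YJL127C) encodes the DNA-binding activator, and its probe set was dim, with a mean level at percentile 10.1 of all probe sets. Its log2 levels were 3.39 and 3.74 in WT, 3.41 and 3.18 in M1, and 3.56 and 3.67 in M8. The WT duplicates were 0.35 apart and spanned both M8 arrays. The difference was -0.27 (SE 0.15) in M1 and 0.051 (SE 0.15) in M8, with limma adjusted p = 0.653 and 0.970. The M1 difference was -0.44 without WT replicate 1, -0.094 without WT replicate 2 and -0.15 without M1 replicate 2. In M8 it turned to -0.12 without WT replicate 1 and to -0.0072 without M8 replicate 2, and it was 0.22 without WT replicate 2 and 0.11 without M8 replicate 1. The deposited values carry no detection call for so dim a probe set.

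The median over the 6 regulators was 0.012 in M1 and -0.0021 in M8, with 3 of 6 above 0 in each. Above 0 lay 2983 of the 5656 genes in M1 and 3223 in M8. Over all 10 genes it was -0.12 in M1, 0.048 in M8, 0.15 between the mutants (M8 minus M1) and -0.042 for the mean of both mutants. The M1 median was -0.0092 without M1 replicate 2 and -0.026 without WT replicate 2. The M8 median was -0.089 without WT replicate 1 and 0.20 without WT replicate 2. M1 replicate 2 was the lowest array for 5 of the 10 genes. The median difference between duplicates was 0.18 in WT, 0.16 in M1 and 0.070 in M8 over the 10 genes, against 0.13, 0.20 and 0.089 over all genes.

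**Figure D4:**
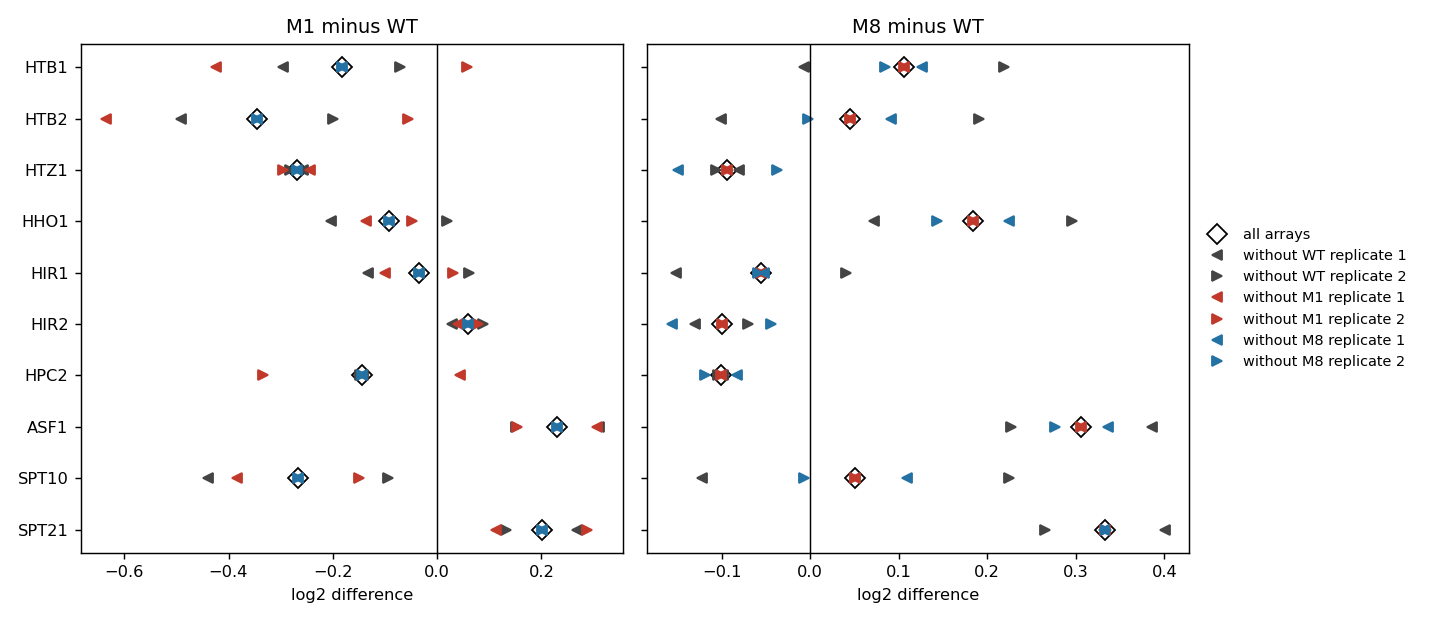
Log2 difference from WT in M1 (left) and M8 (right) with all arrays (open diamonds) and with each array left out (triangles, coloured by the group of the array left out). The 2 panels have separate horizontal scales. In M1 the values for HTB1, HTB2, HPC2 and SPT10 spread widely while HTZ1 stays near -0.27. In M8 ASF1 and SPT21 stay above 0, as they must when no mutant array overlaps with WT.

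Other genes that act on histone genes or on histones were counted by list. Of 10 other regulators of histone genes, among them HIR3 and the cell cycle activators SWI4, SWI6 and MBP1, limma called 0 in either mutant. All 10 had means above WT in M8, the smallest by 0.00049, with a median of 0.13, against 3223 of the 5656 genes. In M1 6 had means above WT, with a median of 0.026, against 2983 of the 5656 genes. SWI4, whose product recognises DNA in the SBF complex at late G1 genes, had log2 levels of 4.96 and 5.29 in WT, 5.84 and 5.22 in M1, and 5.73 and 5.76 in M8. Both M8 arrays lay above WT, by 0.62 (SE 0.21), with an unadjusted p = 0.0185 and limma adjusted p = 0.652. M1 overlapped with WT (0.40, SE 0.21). SWI4 was among the dim genes that one alternative leaves out. FKH1, a forkhead factor of the cell cycle, differed by 0.18 (SE 0.13) in M8. MCM1, a MADS-box factor, differed by -0.43 (SE 0.22) in M1, and this rested on 1 array. Without M1 replicate 1 it was -0.80, and without M1 replicate 2 it was -0.061. The M1 median of this list turned to -0.038 without WT replicate 2, and SWI4 in M1 was 0.094 without M1 replicate 1 and 0.71 without M1 replicate 2.

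Of 14 other histone chaperones and importers limma called 0 in either mutant, with medians of 0.077 in M1 and 0.0071 in M8. NAP1, which encodes a chaperone of H2A and H2B, had log2 levels of 9.20 and 9.14 in WT, 9.47 and 9.40 in M1, and 9.33 and 9.43 in M8. Its arrays did not overlap with WT in either mutant, with 0.27 (SE 0.11) in M1 and 0.21 (SE 0.11) in M8, and limma adjusted p = 0.568 and 0.759. The largest other differences were 0.18 (SE 0.14) in M1 for RLF2, a subunit of the assembly factor CAF-1, and 0.23 (SE 0.12) in M8 for HIF1, a partner of the Hat1 acetyltransferase. Of 13 subunits of SWR1, the complex that deposits H2A.Z, 0 were called in either mutant, with medians of 0.066 in M1 and 0.051 in M8. The catalytic subunit gene SWR1 differed by 0.28 (SE 0.14) and SWC4 by -0.26 (SE 0.15) in M1, and YAF9 by 0.27 (SE 0.16) and VPS71 by -0.18 (SE 0.14) in M8. Of 10 genes of the turnover of histone messages or proteins 0 were called in either mutant, with medians of 0.085 in M1 and -0.013 in M8. The ubiquitin-conjugating enzyme gene UBC5 (-0.32, SE 0.14) and the decapping activator gene LSM1 (-0.26, SE 0.12) had the largest differences in M1, and UBC4 (0.16, SE 0.13) and the checkpoint kinase gene RAD53 (0.13, SE 0.15) in M8.

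Because histone messages peak in S phase, genes of neighbouring cell cycle phases were set beside them. Of 16 G1/S genes limma called 0 in either mutant, with medians of 0.051 in M1 and 0.039 in M8. At an unadjusted p under 0.05, 2 of the 16 were lower in M1, against 3.47% of all genes, and 0 were higher. Their mean log2 level was 7.61 to 7.64 on the WT arrays, 7.56 to 7.66 in M1 and 7.66 on both M8 arrays. The ribonucleotide reductase gene RNR1 differed by -0.33 (SE 0.20) and the G1 cyclin gene CLN1 by -0.29 (SE 0.12) in M1, and the cohesin gene MCD1 by 0.23 (SE 0.12) and the cyclin gene PCL1 by 0.22 (SE 0.18) in M8. The M1 difference of RNR1 was -0.65 without M1 replicate 1 and -0.019 without M1 replicate 2. The M1 median of the G1/S genes turned to -0.060 without M1 replicate 1.

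The 10 measured G2/M genes had a mean log2 level of 7.08 to 7.09 in WT, 6.74 to 6.86 in M1 and 7.005 to 7.10 in M8, with 0 called by limma in either mutant. Their median was -0.29 in M1, with 8 of 10 below 0 against 47.3% of all genes, and -0.077 in M8. In M1 4 of the 10 were lower at an unadjusted p under 0.05, against 3.47% of all genes, and 6 had both arrays below WT, against 13.5%. The lists were chosen with earlier results of these data known, so such counts are no test. The M1 median was -0.20 without M1 replicate 2 and -0.19 without WT replicate 2. The mitotic cyclin gene CLB1 had log2 levels of 6.88 and 7.13 in WT, 6.25 and 5.99 in M1, and 6.79 and 6.83 in M8, a difference of -0.88 (SE 0.14) in M1, with limma adjusted p = 0.170, and -0.19 (SE 0.14) in M8. The M1 difference of CLB1 was -1.01 without M1 replicate 1 and -0.75 without M1 replicate 2. SWI5 differed by -0.58 (SE 0.20) in M1, with -0.86 without M1 replicate 1 and -0.30 without M1 replicate 2. BUD4 differed by 0.22 (SE 0.12) in M8. The 8 M/G1 genes had a mean log2 level of 9.17 to 9.28 in WT, 8.70 to 9.22 in M1 and 9.18 to 9.19 in M8, with medians of -0.22 in M1 and -0.054 in M8 and 0 called in either. The M1 median was -0.032 without M1 replicate 2 and -0.49 without M1 replicate 1. At an unadjusted p under 0.05, 1 of the 8 was lower in M1, against 3.47% of all genes. The daughter cell gene DSE2 (-0.66, SE 0.24) and the glucanase gene SCW11 (-0.64, SE 0.30) had the largest differences in M1. Without M1 replicate 1 they were -1.03 and -1.14, and without M1 replicate 2 they were -0.28 and -0.13. In M8 these were DSE1 (-0.41, SE 0.21) and SIC1 (0.26, SE 0.13), the gene of an inhibitor of the S phase cyclin kinase. The part of these cell cycle genes in the histone values was not tested.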

How the data were processed

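The authors deposited 1 log2 level for each probe set and array, and the submitters' processing notes name RMA and the oligo package without versions or settings. RMA gives no detection call. Precision is limited by the number of arrays. The table of the platform gave 1 gene for 6504 of the 9275 probe sets, several for 328 and none for 2443. All 6504 matched the R64 gene table by gene identifier. For the 315 genes with more than 1 probe set the one with the highest mean was taken, which left 5656 genes.

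Group means were fitted with limma 3.58.1 in R 4.3.3 to all 6 arrays (3 residual degrees of freedom) with eBayes defaults, and p-values are two-sided. The calculation was tested on simulated arrays. Alternatives covered scaling, dim genes, probe set choice, replicate number as a block, the samples sharing the spread, variance moderation, array weights and leaving out each array. The members and lists were chosen with earlier results of these data known, so lists carry counts and medians without a test.

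Named genes are the 10 members, up to 2 genes per list with the largest absolute difference from WT in each mutant, any called list gene, TRA1 and the 5 genes most like HTB1 and HTB2. The shared H2A, H3 and H4 probe sets were added later. No sequences or coordinates were used here.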

Additional observations from a re-analysis of the deposited data

How the results depend on the processing

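Of 626 alternative values for the 10 genes over the 4 comparisons, 601 kept direction and side of the threshold, 22 changed sign and 3 passed the threshold, and the cause was not tested. The 3 were HTB1 and HTB2 between the mutants and HTB2 in M1, without M1 replicate 1. Members called ranged from 0 to 1 in M1 and from 0 to 2 between the mutants when each array was left out. Genes called ranged from 0 to 382 in M1, 0 to 23 in M8, 0 to 748 between the mutants and 0 to 132 for the mean of the mutants. The median of the members ranged from -0.17 to -0.0092 in M1, -0.089 to 0.20 in M8 and -0.13 to 0.058 for the mean. Genes called in M1 were 3 under median centring, 3 with the mean of a gene's probe sets and 2 with array weights. In M8 they were 23 with only the 2 groups compared and 56 with array weights. For the mean of the mutants 4 were called, against 0 under quantile normalization, 0 with all one-gene probe sets, 0 with the replicate block, 0 with the ordinary linear model and 16 with array weights. HTB1 for the mean turned from -0.039 to 0.036 under quantile normalization. Many of the alternatives leave a difference unchanged by design, so the 601 kept values are no measure of stability. Among these are the replicate block, the ordinary linear model and leaving out an array of a group outside the comparison.

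Signs turned when an array was left out, within these ranges. In M1 they were -0.42 to 0.057 for HTB1, -0.20 to 0.019 for HHO1, -0.13 to 0.061 for HIR1, -0.33 to 0.043 for HPC2, -0.013 to 0.46 for CSE4 and -0.45 to 0.023 for MF(ALPHA)2. In M8 they were -0.0068 to 0.22 for HTB1, -0.10 to 0.19 for HTB2, -0.15 to 0.041 for HIR1, -0.12 to 0.22 for SPT10 and -0.27 to 0.0084 for CSE4. Between the mutants they were -0.00094 to 0.15 for ASF1, -0.085 to 0.046 for HIR1 and -0.14 to 0.23 for HPC2. For the mean of the mutants they were -0.16 to 0.082 for HTB1, -0.066 to 0.16 for HHO1, -0.14 to 0.051 for HIR1, -0.050 to 0.0092 for HIR2 and -0.28 to 0.065 for SPT10. Of the shared probe sets, the first and the third for H3 ranged from -0.34 to 0.0071 and from -0.59 to 0.18 in M1, and the second for H3 from -0.26 to 0.014 in M8. List medians that changed sign ranged in M1 from -0.060 to 0.068 for G1/S genes, -0.038 to 0.041 for other regulators, -0.25 to 0.029 for MATalpha genes and -0.051 to 0.075 for the 6 regulators among the members, and in M8 from -0.095 to 0.0050 for G2/M genes, -0.054 to 0.040 for M/G1 genes, -0.062 to 0.038 for MATalpha genes, -0.037 to 0.067 for other chaperones, -0.013 to 0.056 for turnover genes, -0.044 to 0.20 for the 4 histone genes and -0.11 to 0.13 for the 6 regulators. The settings for the lists and the shared probe sets were chosen after seeing the data.

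Whether the replicate numbers pair the arrays cannot be told from the duplicate differences. These correlated across genes at -0.31 between WT and M1, 0.30 between WT and M8 and -0.11 between M1 and M8. M1 replicate 2, which stood apart from the rest, enters the correlations with M1. With the replicate block 0 members were called in each of the 4 comparisons. SPT10 was among the dim genes and has no value with these left out. The same held for SWI4, RAD53, STE3 and MF(ALPHA)2 of the lists. With no detection call, signal over background could not limit the other genes.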
